A study of Gelatoporia subvermispora and Trametes versicolor with 24 samples.

Results

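The response of the white-rot fungus Trametes versicolor to vanillate was followed in 12 of the 24 libraries of the series, chosen because their labels name this fungus. These were 6 flasks of strain FP-101664, grown as a monokaryon, mycelium with a single kind of nucleus per cell. The 3 vanillate flasks received 2 pulses of vanillate 12 h apart, to a final 2 mM, and the 3 water flasks received the same volume of autoclaved water instead. All 6 had grown without shaking and in the dark for 5 days at 28 °C in a medium with 5 g/L cellobiose, were given 5 mM ascorbic acid and 1 mM α-tocopherol 30 min before the first pulse, and were collected 12 h after the last pulse, on day 6. Both groups therefore carried the antioxidants, and each flask is a pure culture of 1 strain at 1 time point. Each flask was represented by a pair of repeat libraries whose counts were summed, so that n = 3 flasks per group throughout.

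White-rot fungi are known for breaking down lignin, the aromatic polymer of wood, with secreted oxidative enzymes such as laccases and peroxidases. Vanillate, a small methoxylated aromatic acid in its charged form, is one of the products of that breakdown. Fungi take such acids up and, within the cell, remove the carboxyl and methoxy groups and open the ring with dioxygenases, and the study's title places this catabolism and an extradiol ring-cleaving dioxygenase at its centre. A symbol was given to 42 of the 14570 genes counted. The others carried a locus identifier, for which no function is stated in the sources used here, so these loci are described by their levels alone.

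Vanillate flasks had 5185591 to 7672499 gene counts and water flasks 3950984 to 13835447, with water replicate 2 the deepest. Counting error, the part of the error set by depth, was therefore largest for genes of few counts in water replicate 3. The Pearson correlation of log2 CPM over the 11032 genes tested was 0.988 to 0.992 between vanillate flasks, 0.987 to 0.991 between water flasks and 0.930 to 0.944 between flasks of different groups. The median SD of log2 CPM within a group was 0.136 in vanillate flasks and 0.159 in water flasks. CPM are counts scaled by TMM to a common total, and they are not divided by gene length, so levels are compared between groups within a gene and not between genes. In such bulk samples, fewer cells that make an RNA and less of that RNA per cell cannot be told apart.

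The response was broad, with a few very large increases and no decrease of similar size. With vanillate, 2222 genes (20.1%) were higher and 2042 (18.5%) lower at an adjusted p under 0.05 in edgeR's quasi-likelihood test, together 38.7% of the genes tested. At least 2-fold changes were found in 764 genes (6.93%) as increases and in 211 (1.91%) as decreases. At least 4-fold changes were nearly all increases, with 224 genes (2.03%) higher and 6 (0.0544%) lower, and 110 genes (0.997%) were at least 8-fold higher while 0 were at least 8-fold lower. The 4-fold decreases numbered 12 without vanillate replicate 3 and 13 without water replicate 2. The median log2 fold change of all genes tested was 0.001. The vanillate flasks lay wholly above the water flasks in 2870 genes (26%) and wholly below them in 2657 (24.1%). In the same fit on cultures of the other fungus of the series, Gelatoporia subvermispora, 87 of 10318 genes (0.843%) were at least 4-fold higher and 28 (0.271%) lower. Fungus and culture age differ together there, and the difference between the fungi was not tested.

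**Figure D1:**
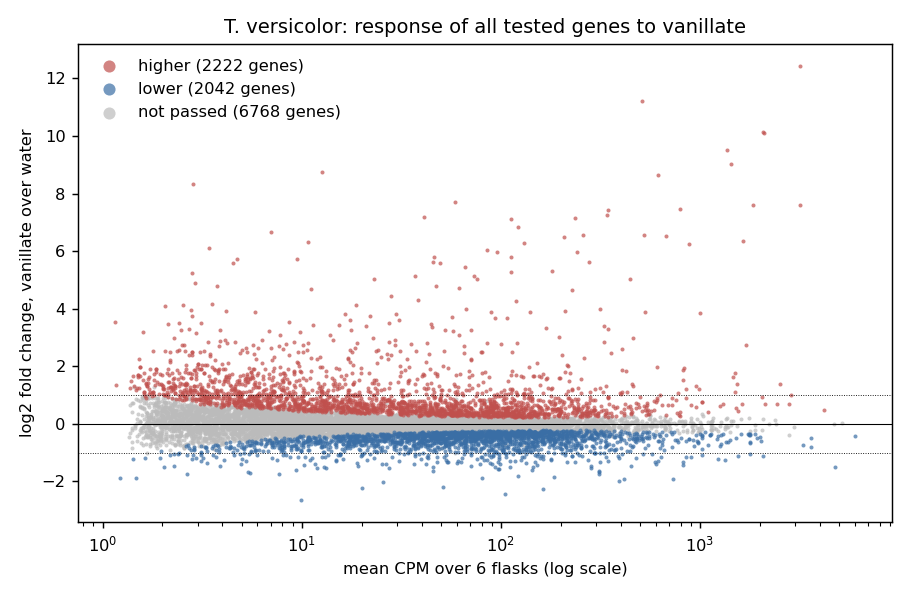
Each point is 1 of 11032 genes, with its mean CPM over 6 flasks on a log axis and its log2 fold change, vanillate over water, on the other; colours mark the 2222 higher, 2042 lower and 6768 other genes, and dotted lines mark 2-fold changes. Increases reach a log2 fold change of 12.44 at high levels, while the largest decrease is -2.66.

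TRAVEDRAFT_50755 had the highest fold change, with 6437, 6947 and 5784 CPM in vanillate flasks, against 0.84, 0.841 and 2.50 CPM in water flasks (log2 fold change 12.44, SE 0.26, adjusted p = 6.29e-15 by edgeR). These levels rest on 116624 counts in vanillate flasks and 27 in water flasks, and the ratio of counts had a 95% counting interval of 3794 to 8377. This transcript was close to the limit of detection in water flasks and among the most counted with vanillate. TRAVEDRAFT_50760 followed with 955, 1359 and 770 CPM, against 0.504, 0.42 and 0.25 CPM in water flasks (log2 fold change 11.22, SE 0.34). TRAVEDRAFT_50752, only 10th by fold change, is given here because it too was close to the limit of detection in water flasks. It stood at 122, 121 and 110 CPM, against 1.18, 0.28 and 0.50 CPM (7.71, SE 0.22). Among these 3 loci the vanillate flasks differed from each other most for TRAVEDRAFT_50760, by less than 2-fold, and no flask of one group approached the other group.

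A second set of loci had a few CPM in water and a fold change between 405 and 1133 with vanillate. TRAVEDRAFT_172513 had 4052, 4233 and 4074 CPM in vanillate flasks, against 2.69, 4.35 and 3 CPM in water flasks (log2 fold change 10.15, SE 0.20, adjusted p = 5.72e-15 by edgeR). TRAVEDRAFT_46296 was almost the same, at 4263, 4206 and 4067 CPM with vanillate, against 4.20, 4.27 and 2.00 CPM with water (10.10, SE 0.20). For both, the 3 vanillate flasks lay within a few percent of each other, with SDs of 99.3 and 100.7 CPM around means of 4120 and 4179 CPM. TRAVEDRAFT_54400 had 3088, 2600 and 2499 CPM with vanillate, against 5.21, 3.15 and 3.25 CPM with water (9.50, SE 0.20). TRAVEDRAFT_46312 had 3176, 2956 and 2445 CPM, against 5.88, 5.75 and 4.50 CPM (9.01, SE 0.19). TRAVEDRAFT_132238 reached 1339, 1228 and 1126 CPM, against 3.02, 2.94 and 3.25 CPM (8.66, SE 0.16). In these 3 loci vanillate replicate 3 was the lowest vanillate flask.

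Loci with a higher level in water rose too, by 196-fold, 192-fold and 80.8-fold in the fit. TRAVEDRAFT_75673 had 7131, 6422 and 5363 CPM in vanillate flasks, against 36.6, 30.9 and 29.0 CPM in water flasks (log2 fold change 7.61, SE 0.19, adjusted p = 2.67e-14 by edgeR). TRAVEDRAFT_31310 had 3784, 3859 and 3367 CPM, against 12.3, 23.8 and 19.5 CPM (7.59, SE 0.22), and TRAVEDRAFT_52556, which was named for its gain in CPM, had 3300, 3535 and 2875 CPM, against 39.0, 38.3 and 43.7 CPM (6.34, SE 0.15). The water counts of these 3 loci were 775, 491 and 953, enough to hold the counting interval of the vanillate to water ratio to 175 to 202 for TRAVEDRAFT_75673 and to 74.2 to 84.4 for TRAVEDRAFT_52556.

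A pair of loci with high fold changes rests on far fewer counts. TRAVEDRAFT_24781 had 150, 65 and 265 counts in vanillate flasks, against 0, 1 and 0 in water flasks, or 29.2, 11.2 and 35.4 CPM with vanillate. Its ratio of counts was 613, with a 95% counting interval of 110 to 24279, and vanillate replicate 2 was well below the other vanillate flasks (log2 fold change 8.76, SE 0.91, adjusted p = 0.000195 by edgeR). TRAVEDRAFT_108704 had 29, 33 and 43 counts in vanillate flasks, or 5.64, 5.69 and 5.75 CPM, against 0 counts in every water flask. Set against a floor of 3 counts over the water group, it was at least 44.7-fold higher with vanillate (adjusted p = 2.26e-07), and its fitted fold change is no bound.

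**Figure D2:**
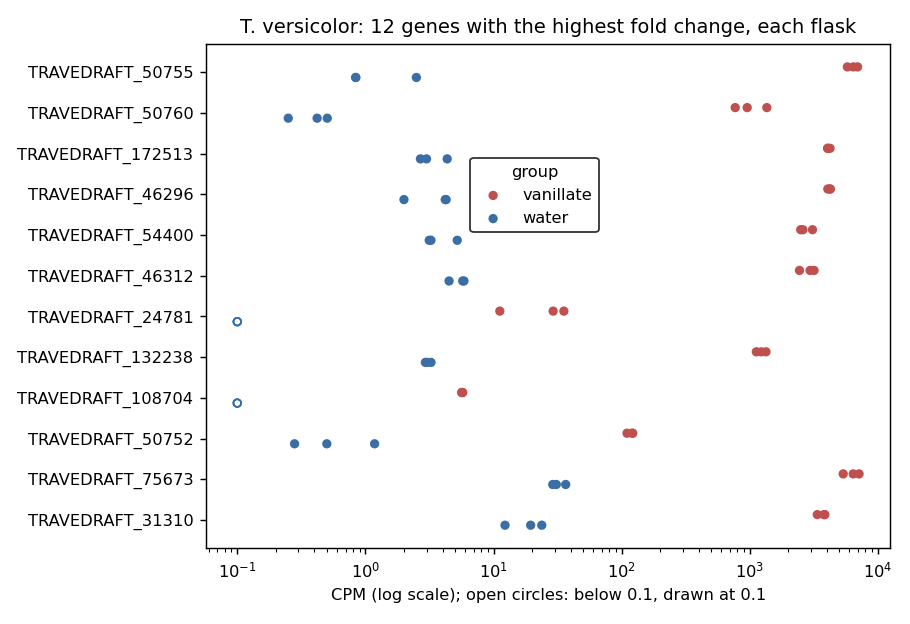
CPM of each flask on a log axis for the 12 genes with the highest fold change; red points are the 3 vanillate flasks, blue points the 3 water flasks, and open circles stand for values below 0.1 CPM drawn at 0.1. In each gene all vanillate flasks lie to the right of all water flasks, from 5.64 CPM upward for TRAVEDRAFT_108704 to 7131 CPM for TRAVEDRAFT_75673.

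These increases took a visible part of the RNA counted. The 12 loci with the highest fold change together held 3.41%, 3.41% and 2.89% of gene counts in vanillate flasks, against 0.00715%, 0.00792% and 0.00686% in water flasks. The 110 genes raised at least 8-fold held 6.02%, 6.11% and 5.13%, against 0.098%, 0.103% and 0.0946%. These sets were chosen for rising, so their direction is no result, and their sizes are a description. Summed over the 2222 higher genes, the gain in CPM came for 21.5% from those 12 loci and for 37.6% from those 110 genes. Of the loss of the 2042 lower genes, the 12 loci with the lowest fold change made up 2.23% and the 211 genes lowered at least 2-fold 26.7%. Chosen instead by their change in CPM, the 6 loci with the largest gain made up 18.3% of the gain and the 6 with the largest loss 10.3% of the loss.

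TRAVEDRAFT_75673 took the largest share of counts in vanillate replicate 1 (0.707%) and TRAVEDRAFT_50755 in vanillate replicate 2 (0.697%). In vanillate replicate 3 that place was held by TRAVEDRAFT_30062 (0.58%), as in water replicate 2 (0.718%), and in water replicates 1 and 3 by TRAVEDRAFT_59617 (0.727% and 0.685%). Of the 100 genes with the highest mean CPM over all flasks, 25 were higher and 34 lower with vanillate, and 14 were at least 2-fold higher against 6 at least 2-fold lower. Over all genes tested the shares were 20.1% and 18.5%, and for at least 2-fold changes 6.93% and 1.91%. A high mean can itself come from a large increase: 8 of these 100 genes were raised at least 8-fold.

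The loci named for the largest losses in CPM were abundant in both groups. A large loss in CPM requires a high level in water flasks, so that level follows from the choice and is no result. Together these loci made up 10.3% of the loss of all lower genes, and the rest of the loss is not described by them. TRAVEDRAFT_59617 lost most, with 2692, 2252 and 2449 CPM in vanillate flasks, against 7366, 6921 and 6761 CPM in water flasks (log2 fold change -1.51, SE 0.13, adjusted p = 2.51e-07 by edgeR). TRAVEDRAFT_72019 had 2638, 2156 and 3094 CPM, against 5609, 3977 and 4088 CPM (-0.79, SE 0.16, adjusted p = 0.00134). TRAVEDRAFT_57970 had 2439, 2482 and 2491 CPM, against 4491, 3726 and 4107 CPM (-0.73, SE 0.12). The groups stood clearly apart in these 3 loci, at 1.66-fold to 2.85-fold lower means with vanillate in the fit. TRAVEDRAFT_110458 (-1.12, SE 0.12) and TRAVEDRAFT_31953 (-1.06, SE 0.13) fell by a little over 2-fold, to 1304 ± 99 and 1156 ± 118 CPM with vanillate, against 2841 ± 249 and 2411 ± 347 CPM with water (SD, n = 3). TRAVEDRAFT_30062, at 4631, 4908 and 5953 CPM with vanillate, against 7056, 6966 and 6706 CPM with water, fell slightly (log2 fold change -0.42, SE 0.13, adjusted p = 0.0221). That call was lost without vanillate replicate 1 (adjusted p = 0.121), without vanillate replicate 2 (0.0682) and without water replicate 3 (0.0502).

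Of the 20 loci with the highest mean CPM over all flasks, 8 were higher with vanillate, 5 were lower and 7 did not pass. Over all genes tested, 20.1% were higher and 18.5% lower. Here too a high mean can come from a large increase: TRAVEDRAFT_50755 and TRAVEDRAFT_75673, among the 20, averaged 1.39 and 32.2 CPM in water flasks. TRAVEDRAFT_136901 was at 4902 CPM with vanillate and 3494 CPM with water (log2 fold change 0.49, adjusted p = 0.0445 by edgeR), and TRAVEDRAFT_152955 at 3627 and 1397 CPM (1.38, adjusted p = 3.47e-07). TRAVEDRAFT_29347 was at 3010 CPM with vanillate and 4200 CPM with water (-0.48, adjusted p = 0.00659). Among those that did not pass, TRAVEDRAFT_110730 was at 5193 CPM with vanillate and 5093 CPM with water (log2 fold change 0.03, adjusted p = 0.88 by edgeR), and TRAVEDRAFT_159607 at 4735 and 4730 CPM (0.00, adjusted p = 0.995). The 5 loci given here with an adjusted p are named because of their values, outside the rule for named genes.

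The 6 genes lowered at least 4-fold had medians of 62.7 CPM in water flasks and 14 CPM in vanillate flasks. Over all genes tested these medians were 29.6 and 30.9 CPM. TRAVEDRAFT_86322 had 2.72, 3.11 and 2.01 CPM in vanillate flasks, against 18.8, 11.1 and 21.7 CPM in water flasks (log2 fold change -2.66, SE 0.30, adjusted p = 1.68e-05 by edgeR), on 47 and 357 counts. TRAVEDRAFT_152872 had 28.4, 39.7 and 30.5 CPM, against 219, 130 and 186 CPM (-2.43, SE 0.21). TRAVEDRAFT_52018 had 51.4, 55.4 and 62.7 CPM, against 338, 185 and 289 CPM (-2.25, SE 0.21). In all 3 the vanillate flasks were close together and water replicate 2 was the lowest of the water flasks. TRAVEDRAFT_41223 was at 8.17, 5.18 and 7.62 CPM, against 43.0, 26.9 and 30.5 CPM (-2.24, SE 0.21). TRAVEDRAFT_147587 was at 18.7, 14.3 and 21.1 CPM, against 122, 49.5 and 80.9 CPM (-2.19, SE 0.35), the widest spread between water flasks relative to the mean among these loci. TRAVEDRAFT_53314, at 8.36, 10.7 and 11 CPM, against 29.6, 41.3 and 52.7 CPM (-2.01, SE 0.20), was the last of the 6 genes past 4-fold.

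Just short of 4-fold stood 3 loci with higher levels. TRAVEDRAFT_149286 had 277, 289 and 350 CPM in vanillate flasks, against 1147, 1187 and 1154 CPM in water flasks (log2 fold change -1.93, SE 0.11, adjusted p = 2.86e-09 by edgeR). TRAVEDRAFT_144883 had 173, 129 and 177 CPM, against 830, 501 and 550 CPM (-1.97, SE 0.20). TRAVEDRAFT_151665 had 147, 190 and 184 CPM, against 717, 479 and 791 CPM (-1.93, SE 0.18). The water flasks agreed best for TRAVEDRAFT_149286, with an SD of 21.0 CPM around 1163 CPM. TRAVEDRAFT_39801, TRAVEDRAFT_75586 and TRAVEDRAFT_166952 completed the 12, with log2 fold changes of -1.90, -1.86 and -1.80 and means of 33.4 ± 8.37, 79.6 ± 11.9 and 53.7 ± 9.32 CPM with vanillate, against 127 ± 25.0, 291 ± 76.8 and 191 ± 53.8 CPM with water (SD, n = 3).

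**Figure D3:**
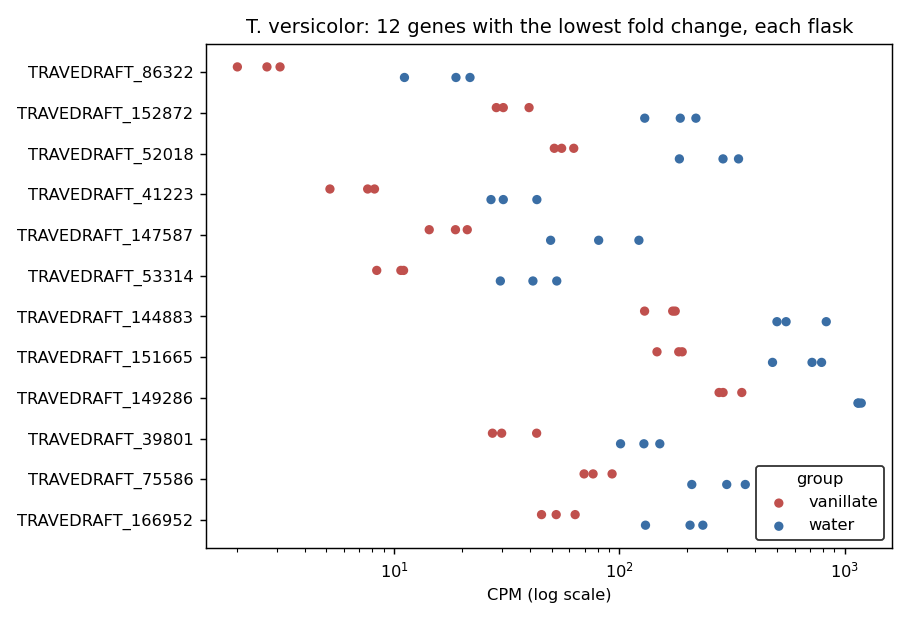
CPM of each flask on a log axis for the 12 genes with the lowest fold change; red points are the 3 vanillate flasks and blue points the 3 water flasks. The groups stand apart in each gene, with 2.72, 3.11 and 2.01 CPM against 18.8, 11.1 and 21.7 CPM for TRAVEDRAFT_86322 at the top.

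The flasks of a group did not contribute evenly. Among the 110 genes raised at least 8-fold, vanillate replicate 3 was the lowest of the vanillate flasks in 68, with a median of -0.14 on the log2 scale to the group's mean, against 0.06 and 0.03 for replicates 1 and 2. Among the 211 genes lowered at least 2-fold, vanillate replicate 3 was the highest of the vanillate flasks in 113. In these 211 genes water replicate 2 was the lowest water flask in 141 and water replicate 1 the highest in 135, with medians of -0.20 and 0.16 to the group's mean. Vanillate replicate 3 and water replicate 2 were also the deepest flask of each group, and the part of depth in this was not tested. Leaving out single flasks gave 110 to 118 genes at least 8-fold higher and 189 to 276 at least 2-fold lower.

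The direction of change differed with the level of a gene. Among the 1796 genes with a mean under 5 CPM over all flasks, 393 (21.9%) were higher and 64 (3.56%) lower with vanillate. Among the 316 genes with 500 CPM or more, 75 (23.7%) were higher and 101 (32%) lower. The share of genes called higher stayed between 17.7% and 23.7% in all 6 bands of level, whereas the share called lower was larger in each higher band. The median SE of the log2 fold change was 0.293 under 5 CPM and 0.094 from 100 to 500 CPM. Smaller changes could therefore be detected at high levels than at low ones. The median log2 fold change was 0.223 under 5 CPM and -0.071 from 100 to 500 CPM. Of all genes tested, 98 averaged under 1 CPM in water flasks and 5 in vanillate flasks. Such genes passed the filter on counts mainly through the other group. The part of detection and of the filter in the differences between bands was not tested.

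For changes of at least 2-fold the picture was different. Increases outnumbered decreases in all 6 bands, with 15.4% higher and 1.61% lower under 5 CPM, 3.01% and 1.99% from 50 to 100 CPM, and 9.49% and 5.70% at 500 CPM or more. The upper end of the distribution was far out among the most abundant genes, where the 95th percentile of the log2 fold change was 3.03, against 0.91 from 100 to 500 CPM. The 5th percentiles of these bands were -1.06 and -0.84. A gene raised many-fold is placed in a higher band by the raised level itself, as the bands use the mean over both groups.

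**Figure D4:**
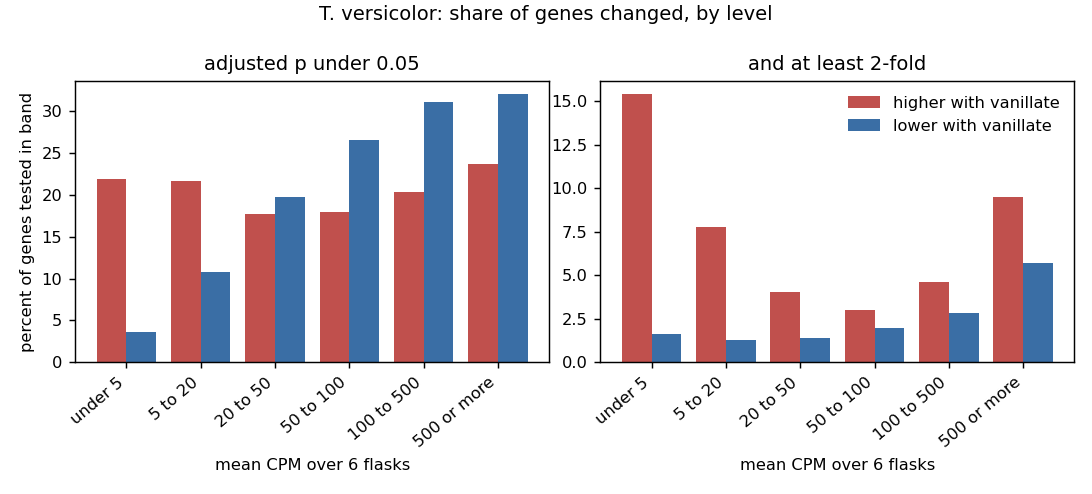
Bars give the percent of genes tested in each band of mean CPM over 6 flasks that were higher (red) or lower (blue) with vanillate, at an adjusted p under 0.05 on the left and with a change of at least 2-fold as well on the right. On the left the lower share runs from 3.56% under 5 CPM to 32% at 500 CPM or more, and on the right the higher share is the larger one in every band.

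Genes raised at least 8-fold were mostly weakly expressed in water. Their median was 96.1 CPM in vanillate flasks and 3.13 CPM in water flasks, and 54 of 110 had at least 100 CPM with vanillate, against 1 with water. In water flasks 31 of these 110 genes averaged under 1 CPM. The 114 genes raised 4- to 8-fold started from a like median, at 16.7 CPM with vanillate and 3.08 CPM with water, as did the 540 genes raised 2- to 4-fold, at 9.95 and 3.93 CPM. Genes lowered 2- to 4-fold numbered 205, with medians of 38.9 CPM with vanillate and 95.5 CPM with water. These classes were formed by the fold change, and the levels are a description.

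Of the 42 genes with a symbol 40 were tested, of which 6 (15%) were higher and 4 (10%) lower, against 20.1% and 18.5% of all genes tested. They are mostly secreted enzymes of lignin attack, and their median log2 fold change was -0.06, against 0.00 over all genes. Near-identical copies in these families may have shared or lost reads, so single members are uncertain.

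The laccases, copper enzymes that oxidise phenols, held 227, 273 and 384 CPM in all in vanillate flasks, against 256, 351 and 507 CPM in water flasks, and the groups overlapped. Of 7 tested, 1 (14.3%) was higher and 0 were lower, against 20.1% and 18.5% of all genes tested. TvLac7 rose, with 36.4, 21.4 and 39.2 CPM, against 2.35, 2.59 and 3.25 CPM in water flasks (log2 fold change 3.60, SE 0.26, adjusted p = 1.96e-07 by edgeR). TvLac3, at 35.8, 42.4 and 42.0 CPM with vanillate, against 34.4, 34.6 and 35.0 CPM with water, did not pass (0.21, SE 0.11, adjusted p = 0.145), although its groups did not overlap. TvLac1, the member with most counts, ranged from 97.5 to 241 CPM with vanillate and from 148 to 391 CPM with water (-0.69, SE 0.48, adjusted p = 0.322). The spread of TvLac1 within each group was more than 2-fold.

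Class II peroxidases are secreted heme enzymes that oxidise lignin or manganese with hydrogen peroxide. The 26 members held 231, 224 and 233 CPM in vanillate flasks, against 292, 281 and 219 CPM in water flasks. Of 24 tested, 4 (16.7%) rose (VP1, MnP5s, MnP12s and MnP4s), 3 (12.5%) fell (LiP1, MnP1s and MnP11s) and 17 did not pass. Over all genes tested, 20.1% rose and 18.5% fell. The versatile peroxidase VP2 made up much of the sum, at 105, 77.8 and 105 CPM with vanillate, against 146, 138 and 91.7 CPM with water (log2 fold change -0.40, SE 0.17, adjusted p = 0.0957 by edgeR). VP2 passed as lower without water replicate 3 (-0.58, adjusted p = 0.00342) and with the first library of each flask (-0.52, adjusted p = 0.0222). Each of the 4 that rose was at or under 5.52 CPM in every flask. VP1 had 5.45, 5.52 and 4.41 CPM, against 3.02, 1.12 and 0.999 CPM (1.65, SE 0.34, adjusted p = 0.00131). LiP1, a lignin peroxidase, had 9.34, 10.9 and 9.89 CPM, against 23.9, 15.1 and 14.2 CPM (-0.81, SE 0.20, adjusted p = 0.00438). The number that rose was 2 without vanillate replicate 1 or without water replicate 3, and the number that fell was 1 without vanillate replicate 1 or without water replicate 2.

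Of the 5 heme-thiolate and dye-decolorizing peroxidases, 0 were higher and 1 (20%) was lower, against 20.1% and 18.5% of all genes tested. DyP1 fell, with 17.9, 15.7 and 11.8 CPM in vanillate flasks, against 30.2, 22.1 and 20 CPM in water flasks (log2 fold change -0.69, SE 0.18, adjusted p = 0.00746 by edgeR). Without vanillate replicate 3 its adjusted p was 0.0516. DyP2 and HTP2 had vanillate flasks wholly above water flasks, at 6.51 ± 1.29 against 4.48 ± 0.54 CPM and 5.85 ± 0.49 against 4.17 ± 0.19 CPM (SD, n = 3), and did not pass (adjusted p = 0.0662 and 0.0787). DyP2 passed without vanillate replicate 2 (0.0369) and with the second library of each flask (0.0273). CCP1, by its symbol a cytochrome c peroxidase, an enzyme that removes hydrogen peroxide in mitochondria, had 244, 218 and 235 CPM, against 174, 194 and 189 CPM (0.32, SE 0.09, adjusted p = 0.00942). Its adjusted p without vanillate replicate 1 was 0.0573.

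The remaining symbols did not pass. LDO1 had 67.7, 101 and 123 CPM in vanillate flasks, against 214, 113 and 170 CPM in water flasks (log2 fold change -0.75, SE 0.28, adjusted p = 0.0734 by edgeR). Vanillate replicate 3 and water replicate 2 overlapped. Without vanillate replicate 3 or water replicate 2 its adjusted p was 0.0440 and 0.0202, with library totals 0.0237, and with only genes of at least 5 CPM in at least 3 flasks 0.0250. LDO2 had 35.0, 38.6 and 30.6 CPM, against 45.7, 43.2 and 34.7 CPM (-0.27, SE 0.13, adjusted p = 0.118, and 0.0462 without water replicate 3). TvFet3A, by its symbol a Fet3-type multicopper ferroxidase, which in yeast serves iron uptake, had 266, 302 and 299 CPM, against 200, 344 and 340 CPM (-0.03, SE 0.18, adjusted p = 0.916). Its water replicate 1 lay below all other flasks, and without that flask the log2 fold change was -0.25 (adjusted p = 0.0404). MnP13 and MnP9s were too low to be tested, with 9 and 3 counts in all vanillate flasks and 2 and 5 in all water flasks.

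**Figure D5:**
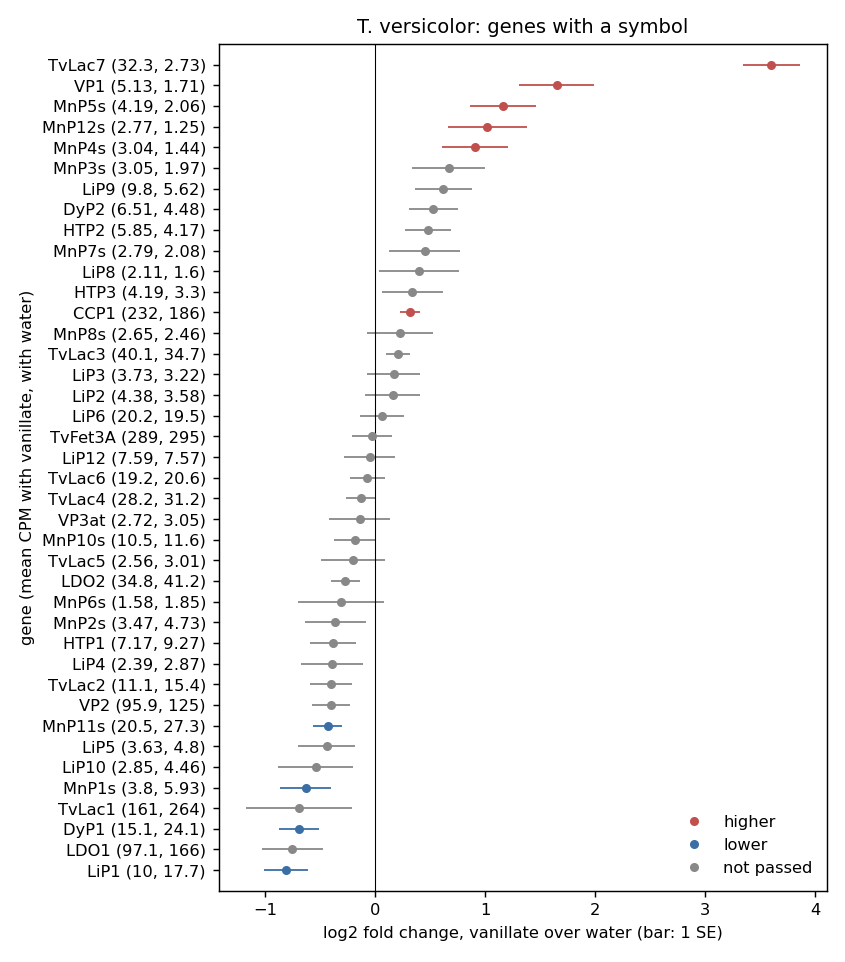
Log2 fold change, vanillate over water, with 1 SE for the 40 tested genes with a symbol; the mean CPM with vanillate and with water stand beside each name, and colours mark genes that were higher, lower or did not pass. TvLac7 stands apart at 3.60, and the other genes lie between -0.81 and 1.65.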

How the data were processed

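The authors deposited, per library, raw read counts of genes with no normalization. FastQC, STAR and HTSeq were used, per the submitters' processing notes; their versions, the genome build, the annotation and whether strand was used in counting are not known here. Per the labels' protocols, the kit was a stranded one for total RNA. The 5 closing rows of reads given to no gene, 23.6% to 25.3% of reads in a flask, entered neither library sizes nor tests.

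The titles give a pair of libraries per treatment and replicate number, of 1764115 to 8143448 gene counts each, and do not say what the second one is. Over genes with at least 10 counts, the chi-square statistic over its degrees of freedom was 1.015 to 1.085 within the 6 pairs and 2.311 to 8.763 between different flasks of a group, although 5 of the 6 pairs differed beyond sampling noise. Each pair was taken as repeats of 1 flask and summed. As separate seed cultures are not documented, p-values describe the spread among these 6 flasks, which may be technical in part.

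Genes were kept by filterByExpr (minimum count 10, minimum total 15), scaled by TMM and tested two-sided with edgeR 4.0.16 in R 4.3.3 (robust glmQLFit, glmQLFTest), with Benjamini-Hochberg adjustment over 11032 genes. The steps were tested on simulated data. The SE was derived from the F statistic and may be too low for genes of few counts. Intervals of count ratios are exact conditional binomial ones at 95% and cover counting error only. DESeq2 1.42.0 was an alternative. Named genes had an adjusted p under 0.05, no overlap between groups and at least 5 CPM in the higher group: the 12 with the highest and the 12 with the lowest log2 fold change and the 6 with the largest gain and the 6 with the largest loss in CPM. Genes with symbols were added. The members and lists were chosen with earlier results of these data known. The 21 lists based on product names and the comparison of neighbouring genes were not made, as no product names or gene order were used here.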

Additional observations from a re-analysis of the deposited data

Results flagged for a closer look

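Reads given to no gene were outside the comparisons above, and 3 of their classes were higher in all vanillate flasks than in all water flasks. Reads aligned outside any counted gene made up 6.96% ± 0.0687 of reads in vanillate flasks and 6.46% ± 0.115 in water flasks (SD, n = 3; 7.02%, 6.89% and 6.97% against 6.58%, 6.35% and 6.44%). Reads over more than 1 gene made up 0.774% ± 0.0293 with vanillate and 0.708% ± 0.0186 with water. Reads of low alignment quality made up 2.27% ± 0.0392 with vanillate and 2.07% ± 0.0472 with water. In an exact two-sided permutation test each of the 3 had p = 0.1, the smallest that 3 against 3 flasks allows. Any class without overlap between the groups has this value, so the test adds nothing to that separation. Reads given to genes were 75.5% ± 0.472 with vanillate and 75.4% ± 0.855 with water. Which transcripts or places these reads came from was not tested.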

How the results depend on the processing

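The alternatives were library totals, DESeq2 size factors, the DESeq2 Wald test, no filter on low counts, at least 5 CPM in at least 3 flasks, the first or the second library of each flask, a replicate block, and leaving out each flask. In addition, 2-fold calls were made against a 1.2-fold change. Of the calls reported, 73.5% (first library of each flask) to 99.5% (DESeq2 size factors) were also made. For the 31 named loci with identifiers, 431 of 434 values kept their direction and their side of the threshold, the 3 others being those of TRAVEDRAFT_30062. For the 40 tested genes with symbols it was 479 of 517, with 23 calls lost and 15 gained. Genes at least 4-fold lower, 6 as reported, were 10 with no filter on low counts. Class II peroxidases higher, 4 as reported, were 2 with the DESeq2 Wald test, 0 with at least 5 CPM in at least 3 flasks, 0 with the first library and 2 with the second library of each flask. Under the CPM filter and with the first library 0 of the 4 had enough counts to be tested, and with the second library 2 of the 4 were tested and both were called, so these numbers come from the filter. Heme-thiolate and dye-decolorizing peroxidases higher were 1 with the second library, against 0 as reported.

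Leaving out each flask gave 1787 to 2205 genes higher and 1499 to 2036 lower, 750 to 810 at least 2-fold higher, 224 to 261 at least 4-fold higher and 5 to 13 at least 4-fold lower. It gave 0 to 1 laccases lower, 2 to 4 class II peroxidases higher and 1 to 4 lower, and 0 to 1 heme-thiolate and dye-decolorizing peroxidases in each direction. The deviations of flasks with the same replicate number correlated by -0.006, 0.096 and -0.041, within the range for flasks with different numbers (-0.135 to 0.151). No pairing by number was therefore seen over the genes as a whole, and pairing for single genes was not tested. With the replicate block 4307 genes were called, 4111 of them among the 4264 reported, and 1 laccase was lower: TvLac1, at -0.70 on the log2 scale (adjusted p = 7.59e-06 by edgeR). Depth limits genes of few counts. Of the genes tested, 98 averaged under 1 CPM in water flasks and 5 in vanillate flasks. Most of the 98 were called higher with vanillate: 31 at least 8-fold, 22 by 4- to 8-fold and 41 by 2- to 4-fold, while 4 did not pass. A gene this low in water flasks passed the filter on counts mainly through its vanillate flasks. The direction of these 98 genes therefore follows largely from the filter and is no result.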

Other observations

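Counts were found in vanillate flasks but in 0 water flasks for 188 genes, and in water flasks but in 0 vanillate flasks for 217 genes, on 18636461 and 23817029 gene counts in all. Of the 188, TRAVEDRAFT_108704 alone reached the level needed for the test; of the 217, 0 did. A count of 0 over the water flasks allows up to 3 counts, or 0.126 CPM.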
